A study of Mus musculus with 9 samples.

Results

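The 10 circadian clock genes Arntl, Clock, Npas2, Per1, Per2, Per3, Nr1d1, Nr1d2, Dbp and Tef were examined in mouse gastrocnemius, a calf muscle, by RNA sequencing. They were chosen by name as core clock and clock output genes, and all 10 were found among the 24062 gene symbols of the count table. All 10 also passed the filter on low counts, which left 12989 symbols for testing. The groups were hetX753 and hetL1002P, carriers of 1 altered copy of Bub1b, and wild type (WT), with 3 libraries each from mice aged 3 months on a 129Sve/C57BL/6 mix background. Bub1b encodes the spindle checkpoint protein BubR1, and the series asks how 2 alleles linked to mosaic variegated aneuploidy act. The labels name neither the hour of collection nor the feeding state, and they do not tie a library to an animal.

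In mice the clock is a feedback loop of transcription. Arntl (BMAL1) pairs with Clock or its relative Npas2 and activates the Per genes, Nr1d1, Nr1d2, Dbp and Tef through E-box elements, and the Per proteins then repress that pair. Nr1d1 and Nr1d2 (REV-ERB alpha and beta) repress Arntl and Npas2, so that in mouse tissues Arntl and Npas2 peak at about the opposite time of day to Dbp and the Per genes. Dbp and Tef are PAR bZIP transcription factors that carry the rhythm to output genes through D-box elements. In skeletal muscle the loop runs in the fibres themselves and times genes of fuel use.

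The elements named above can be looked for in the promoters, shown here because these genes act on each other through them. RefSeq windows (GRCm38.p6) of 300 bases were available for 9 of the 10 genes, 14 windows in all. Per2 had none. Each window was searched on both strands for the E-box CACGTG, the D-box TTANGTAA and the REV-ERB and ROR element in its forms TAGGTCA and TGGGTCA. The matches did not overlap each other. Over all 32851 such mouse windows, 7.15% held CACGTG, 2.32% TTANGTAA, 2.61% TAGGTCA and 3.98% TGGGTCA. Among the clock genes, CACGTG was in windows of Per1 and Tef, TTANGTAA in that of Per3, TAGGTCA in 1 of Arntl, and TGGGTCA in none. The 4 windows shown here carry such a match, in capitals, 5′ to 3′ on the gene's strand, with the start site at position 251.
Arntl, chr7:113207261-113207560, plus strand, TAGGTCA at position 281: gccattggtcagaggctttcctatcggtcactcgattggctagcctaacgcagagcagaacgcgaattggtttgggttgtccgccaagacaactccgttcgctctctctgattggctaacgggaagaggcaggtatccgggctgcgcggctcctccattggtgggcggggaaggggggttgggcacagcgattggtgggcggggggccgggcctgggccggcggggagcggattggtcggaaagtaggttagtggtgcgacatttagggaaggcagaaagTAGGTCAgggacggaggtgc
Per1, chr11:69098699-69098998, plus strand, CACGTG at position 85: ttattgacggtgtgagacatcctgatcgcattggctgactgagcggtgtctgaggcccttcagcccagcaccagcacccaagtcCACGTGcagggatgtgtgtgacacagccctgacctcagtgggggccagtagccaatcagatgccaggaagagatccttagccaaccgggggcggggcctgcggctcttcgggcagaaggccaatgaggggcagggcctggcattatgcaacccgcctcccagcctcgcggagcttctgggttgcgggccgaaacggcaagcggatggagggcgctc
Per3, chr4:151044616-151044915, minus strand, TTANGTAA at positions 46 and 93: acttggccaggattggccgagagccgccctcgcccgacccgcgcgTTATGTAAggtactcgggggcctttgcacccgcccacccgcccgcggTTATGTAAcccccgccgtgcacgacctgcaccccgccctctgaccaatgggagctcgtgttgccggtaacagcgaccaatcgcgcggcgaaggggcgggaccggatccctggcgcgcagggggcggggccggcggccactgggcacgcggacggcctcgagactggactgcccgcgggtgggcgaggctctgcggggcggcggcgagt
Tef, chr15:81802423-81802722, plus strand, CACGTG at position 124: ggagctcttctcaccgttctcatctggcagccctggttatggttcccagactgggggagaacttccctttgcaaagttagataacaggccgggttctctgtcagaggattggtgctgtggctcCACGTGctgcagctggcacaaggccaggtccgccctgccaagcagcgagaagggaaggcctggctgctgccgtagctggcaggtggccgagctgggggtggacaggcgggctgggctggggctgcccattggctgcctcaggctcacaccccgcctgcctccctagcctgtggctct
The other Tef window, at chr15:81811164-81811463 on the plus strand, held CACGTG at position 113. These matches describe letters only, and a window without one says nothing about binding elsewhere.

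Totals of counted reads lay between 20106833 and 27797765 in hetX753, between 22795669 and 25712368 in hetL1002P, and between 19768149 and 33977252 in WT, with Per2 at 131 to 522 counts per library and Tef at 6333 to 11043. Bub1b averaged 0.278 ± 0.0432 CPM, the gene's count scaled to library size by edgeR, in hetX753, 0.271 ± 0.156 in hetL1002P and 0.654 ± 0.107 in WT (SD, n = 3). These Bub1b values rest on 2 to 21 counts per library. Against WT its adjusted p was 0.177 in hetX753 and 0.58 in hetL1002P (edgeR quasi-likelihood test), so that neither difference was called. On the first principal component of all tested genes, WT 3 (-47.5) and hetL1002P 3 (-32.5) stood apart from the other 7 libraries (-9.52 to 28.8). In the clock genes other libraries stood apart, WT 1 and hetL1002P 1.

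Per kilobase of exon, the output gene Tef stood highest in hetX753 at 51.4 ± 1.33 CPM per kb, followed by Nr1d1 at 38.2 ± 10.2 and Dbp at 32.6 ± 5.75 (SD, n = 3). In hetL1002P Nr1d1 led at 64.9 ± 9.66 CPM per kb before Tef at 42.4 ± 2.12, and in WT Nr1d1 at 66.4 ± 21.6 before Tef at 39.0 ± 2.64 (SD, n = 3 each). Dbp was the third there, at 30.3 ± 16.9 CPM per kb in hetL1002P and 23.3 ± 10.6 in WT. Nr1d2 and Per1 came next in each genotype, at 17.2 and 14.9 CPM per kb in hetX753, 15 and 9.34 in hetL1002P and 12.6 and 8.38 in WT. Per2, Per3, Clock and Arntl lay between 0.933 and 3.21 CPM per kb in hetX753, between 1.5 and 1.84 in hetL1002P and between 1.17 and 1.91 in WT. Npas2 was last, at 0.0323 CPM per kb in hetX753, 0.116 in hetL1002P and 0.238 in WT. Neighbours whose levels differed by less than the larger of their SDs were Nr1d1 and Dbp, Nr1d2 and Per1, Per2 and Per3, and Clock and Arntl in hetX753. In hetL1002P they were Tef and Dbp, Dbp and Nr1d2, and each neighbouring pair from Per3 through Per2 and Arntl to Clock. In WT they were each neighbouring pair from Nr1d2 through Per1, Arntl, Per3 and Per2 to Clock. Levels per length were not tested between genes.

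**Figure D1:**
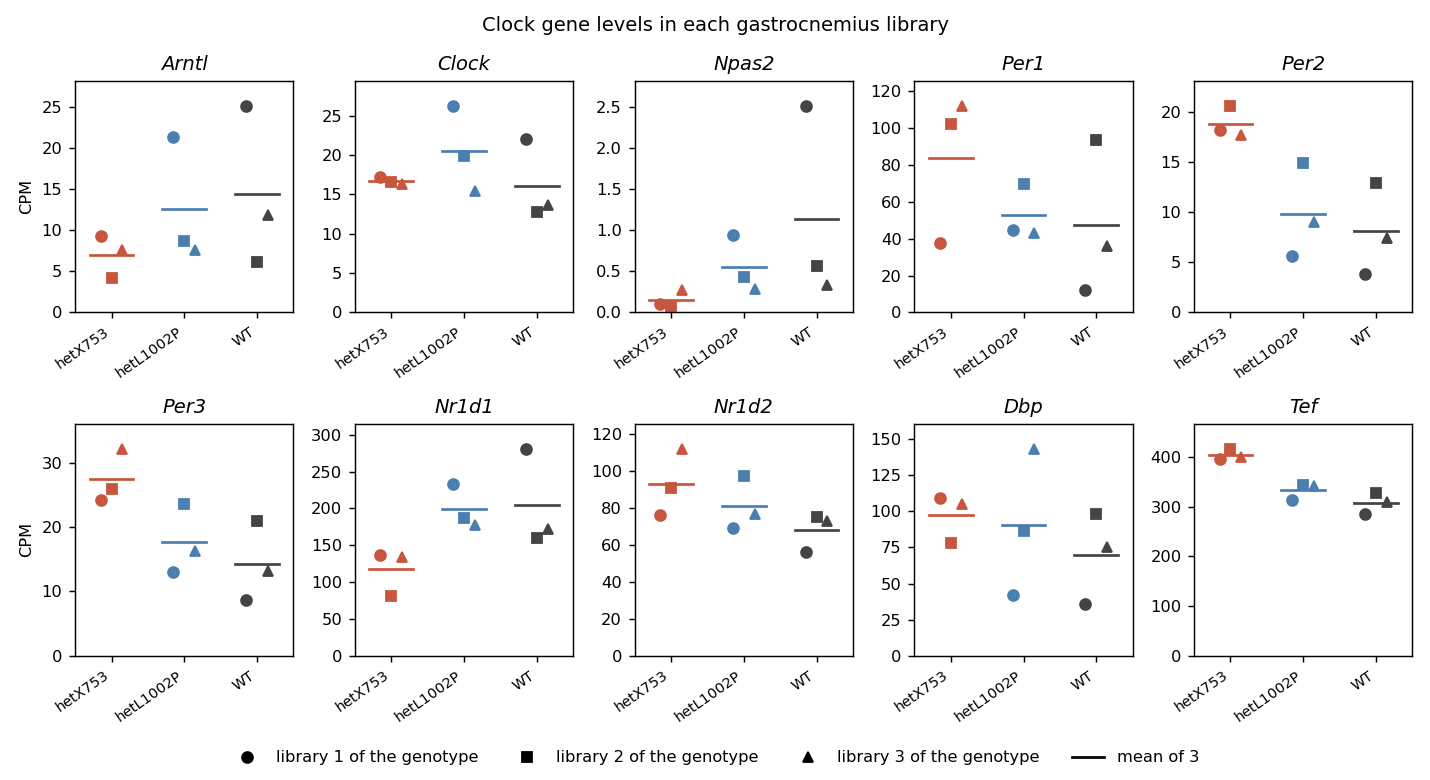
Level of each of the 10 clock genes (CPM, linear axis from 0) in the 3 libraries of hetX753, hetL1002P and WT. Points are libraries, shaped by their number in the label, and lines are means of 3. WT 1 lies highest in WT for Arntl, Clock, Npas2 and Nr1d1 and lowest in WT for the other 6 genes.

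Among the activators, Arntl was low in hetX753 libraries and spread widely elsewhere. It had 9.34, 4.14 and 7.57 CPM in hetX753 1 to 3, 21.3, 8.74 and 7.64 CPM in hetL1002P 1 to 3, and 25.2, 6.09 and 11.9 CPM in WT 1 to 3. WT 1 and hetL1002P 1 stood apart at the high end, and the 3 genotypes overlapped. The gene lies on chromosome 7 from 113207465 to 113314126 on the plus strand (GRCm38, GENCODE M21). Its log2 fold change was -1.05 (SE 0.52) in hetX753 against WT and did not pass the threshold (adjusted p = 0.274, edgeR quasi-likelihood test). Without WT 1 it was -0.36 (adjusted p = 0.68).

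Npas2, the Clock relative, was scarce. It passed the filter on low counts only through 2 libraries each of hetL1002P and WT, with 0 of 3 hetX753 libraries at the bound of 0.408 CPM. The counts were 3, 2 and 6 in hetX753, 24, 12 and 6 in hetL1002P, and 85, 11 and 7 in WT. In CPM that is 0.108, 0.0789 and 0.277 in hetX753, 0.944, 0.431 and 0.285 in hetL1002P, and 2.52, 0.568 and 0.338 in WT. On this scale all hetX753 libraries lay below the others. By library totals alone hetX753 3 (0.298) passed hetL1002P 3 (0.263), with 6 reads in both, and nearly reached WT 3 (0.300). The gene is on chromosome 1 from 39193731 to 39363236. The log2 fold change against WT was -2.99 (SE 0.85) in hetX753, with adjusted p = 0.129, and -1.57 without WT 1 (adjusted p = 0.241), by edgeR. Given how it passed the filter, Npas2 was left out of some counts in hetX753 against WT. These are the counts of unadjusted p, of libraries apart and of direction. Other counts below, those of called genes, library ends, same-numbered pairs and correlations among them, include Npas2 and carry this limit.

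Clock itself, on chromosome 5 from 76209868 to 76304792, differed little on average. It had 17.1, 16.6 and 16.3 CPM in hetX753, 26.2, 19.9 and 15.5 CPM in hetL1002P, and 22.0, 12.7 and 13.6 CPM in WT. The hetX753 libraries were nearly equal and sat inside the range of WT. The log2 fold change in hetX753 against WT was 0.04 (SE 0.23, adjusted p = 0.93), and its sign turned without WT 2 or WT 3.

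Of the repressors of the loop, Per2 was highest in the hetX753 libraries. It had 18.1, 20.6 and 17.7 CPM in hetX753, 5.59, 14.9 and 9.01 CPM in hetL1002P, and 3.88, 12.9 and 7.45 CPM in WT. Every hetX753 library lay above every library of the other genotypes, and hetX753 was also the most even. Per2 is on chromosome 1 from 91415982 to 91459324 on the minus strand. Against WT the log2 fold change was 1.24 (SE 0.41), 2.36-fold, with adjusted p = 0.155. It was 0.89 without WT 1 (adjusted p = 0.204).

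Per3, a weaker partner in the same complex, followed Per2. It had 24.3, 25.9 and 32.2 CPM in hetX753, 13.1, 23.6 and 16.3 CPM in hetL1002P, and 8.70, 21.1 and 13.2 CPM in WT. The hetX753 libraries again lay above all others, by a narrow margin over hetL1002P 2. Its log2 fold change against WT was 0.95 (SE 0.30), 1.93-fold, with adjusted p = 0.147. Per3 is on chromosome 4 from 151003652 to 151044665.

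Per1, the most abundant Per gene here per length, was uneven within genotypes. It had 37.5, 102 and 112 CPM in hetX753, 44.9, 69.6 and 43.3 CPM in hetL1002P, and 12.1, 93.3 and 36.1 CPM in WT. WT 2 and all hetL1002P libraries lay between hetX753 1 and hetX753 2, so that the groups overlapped. Per1 is on chromosome 11 from 69095217 to 69109960. The log2 fold change in hetX753 against WT was 0.84 (SE 0.63, adjusted p = 0.451), 0.37 without WT 1 and 1.81 without WT 2. Besides the clock, Per1 is induced by glucocorticoids, as is Tsc22d3 (GILZ). Tsc22d3 had 162, 326 and 248 CPM in hetX753, 138, 203 and 187 CPM in hetL1002P, and 163, 318 and 206 CPM in WT. Its library 2 was highest in each genotype, while that of Per1 was highest in hetL1002P and WT only. Other glucocorticoid-responsive genes were mixed. Klf9, Klf15, Sgk1 and Ddit4 were highest of their genotype in the same libraries as Per1, namely WT 2, hetL1002P 2 and hetX753 3. Klf9 had 72.9, 98.3 and 114.5 CPM there. No other gene of that list shared all of these libraries. Fkbp5 and Mt1 were highest in hetX753 2 (63.1 and 17.05 CPM) and WT 2 (59.6 and 22.0 CPM). They were lowest of their genotype in hetL1002P 2 (27.2 and 8.34 CPM). Fbxo32 was lowest of its genotype in hetX753 2 (175 CPM), and its library 2 was highest in no genotype.

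The REV-ERB pair lay on opposite sides of WT in hetX753, and neither gene passed. Nr1d1 had 136, 81.4 and 135 CPM in hetX753, 233, 188 and 178 CPM in hetL1002P, and 281, 160 and 172 CPM in WT. All hetX753 libraries lay below all of the other 6. The log2 fold change was -0.80 (SE 0.25) against WT, 1.74-fold lower, with adjusted p = 0.141, and -0.50 without WT 1 (adjusted p = 0.22). Nr1d1 is on chromosome 11 from 98767932 to 98775333 on the minus strand, and 263 bases, 8.55% of its exon length, overlap Thra on the other strand. Thra, the thyroid hormone receptor alpha gene, averaged 61.4 ± 2.08 CPM in hetX753, 67.1 ± 9.44 in hetL1002P and 61.1 ± 5.51 in WT (SD, n = 3), with a log2 fold change of 0.01 (SE 0.12) in hetX753 against WT.

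Nr1d2 had 76.2, 91.0 and 112 CPM in hetX753, 69.4, 97.6 and 76.6 CPM in hetL1002P, and 56.1, 74.9 and 72.9 CPM in WT. The hetX753 libraries lay above WT but not above hetL1002P. Its log2 fold change against WT was 0.45 (SE 0.18), with adjusted p = 0.197, and 0.29 without hetX753 3 (adjusted p = 0.527). It lies on chromosome 14 from 18204054 to 18239127.

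Of the output factors, Tef was the steadiest and Dbp among the least steady. Tef had 397, 416 and 400 CPM in hetX753, 314, 344 and 342 CPM in hetL1002P, and 286, 327 and 309 CPM in WT. The hetX753 libraries stood above all 6 others, with a gap larger than the spread inside any genotype. Against WT it stood at a log2 fold change of 0.40 (SE 0.10), 1.32-fold, with adjusted p = 0.114, the smallest of the 10 genes. It passed with DESeq2 (adjusted p = 0.00596) and in edgeR when hetL1002P 3 was left out (0.0433), or WT 3 along with it (0.0467). Over all alternatives its adjusted p ran from 0.00596 to 0.351. Tef lies on chromosome 15 from 81802421 to 81826863.

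Dbp had 110, 77.9 and 106 CPM in hetX753, 42.3, 86.3 and 143 CPM in hetL1002P, and 35.8, 98.6 and 75.1 CPM in WT. WT 1 and hetL1002P 1 were the lowest and the groups overlapped. The log2 fold change in hetX753 against WT was 0.49 (SE 0.42, adjusted p = 0.508), 0.17 without WT 1 and 0.82 without WT 2. Dbp is on chromosome 7 from 45705088 to 45710203, and 539 bases (18.0%) of its exons overlap Sphk2 on the other strand.

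Counted over the genes, hetX753 against WT had 0 of 10 past an adjusted p of 0.05, where 0.508% of all 12989 tested genes passed, 0.331% higher and 0.177% lower in hetX753 (edgeR). DESeq2 called 4 of the 10, Per2 (adjusted p = 0.0429), Per3 (0.0455), Nr1d1 (0.0358) and Tef, against 5.15% of the genes to which it gave an adjusted p, and limma-voom called 0. Leaving out Npas2, an unadjusted p under 0.05 was reached by 5 of 9, Per2, Per3, Nr1d1, Nr1d2 and Tef, where 20.9% of all genes reached it. These 5 also had hetX753 libraries that did not overlap with WT, 4 of them higher and Nr1d1 lower, where 16.7% of all genes were apart and higher and 15.8% apart and lower. Of the 9 genes 7 had a positive log2 fold change and 2 a negative one, Arntl and Nr1d1, and the median was 0.45, against 0.00 over all genes tested.

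Markers of other cell types and of muscle fibres are given beside these values. The summed level of 10 fibre markers, led by the myosin heavy chain gene Myh4, lay at 177900 to 198300 CPM in hetX753 libraries, 194300 to 227000 in hetL1002P libraries and 225600 to 261900 in WT libraries, so that hetX753 and WT did not overlap. In hetX753 against WT 8 of 10 had a negative log2 fold change, among them Acta1 (-0.49, SE 0.14), with 0 past the threshold. Myh4 itself (0.06, SE 0.14) and Myh1 (0.08, SE 0.19) were not lower. None of the 10 was at 0 in any library. Fewer fibres and less RNA of a kind per fibre cannot be told apart in whole tissue. Summed markers of adipocytes, macrophages, fibroblasts and endothelium overlapped between hetX753 and WT except those of fibroblasts, at 582 to 743 CPM in hetX753 and 823 to 985 in WT. Log2 fold changes in hetX753 against WT were negative in 8 of 8 fibroblast markers (median -0.46) and 7 of 7 macrophage markers (median -0.58), and positive in 6 of 8 adipocyte and 5 of 8 endothelial markers, with 0 past the threshold in each list. The adipocyte sum is mostly Car3. Among its smaller members Lep had 4.56, 31.3 and 8.54 CPM in hetX753, 5.86, 3.67 and 1.23 CPM in hetL1002P, and 3.52, 7.17 and 3.53 CPM in WT, so that hetX753 2 stood apart in it. The 4 globin genes were listed at 0 in all libraries, while the remaining erythroid marker, Alas2, had 84 to 290 counts per library. The globin zeros thus do not show that erythroid RNA was absent. The part of these cell types in the clock gene differences was not tested.

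**Figure D2:**
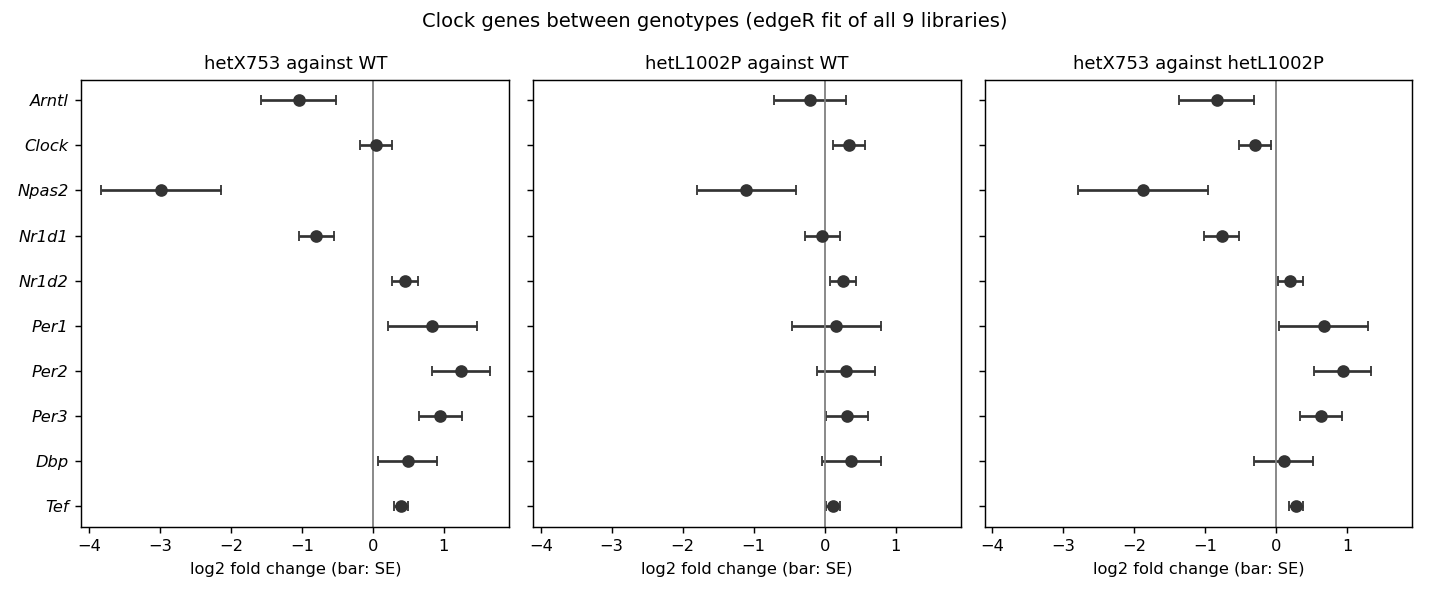
Log2 fold change of the 10 clock genes in hetX753 against WT, hetL1002P against WT and hetX753 against hetL1002P. Points are edgeR estimates from all 9 libraries and bars are 1 SE; Npas2 reaches -2.99 and Per2 1.24 in hetX753 against WT, and 0 genes passed the threshold in any of the panels.

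In hetL1002P against WT the log2 fold changes ran from -1.11 (SE 0.70) for Npas2 to 0.38 (SE 0.42) for Dbp, with adjusted p from 0.584 to 0.967. Per2 stood at 0.31 (SE 0.41), Per3 at 0.31 (SE 0.30), Tef at 0.12 (SE 0.10) and Nr1d1 at -0.03 (SE 0.24). No gene had libraries apart from WT, where 5.67% of all genes were apart and higher and 3.77% apart and lower. Called genes numbered 0 of 10, with 0 at an unadjusted p under 0.05, by edgeR, where 0% and 7.96% of all genes were, and DESeq2 and limma-voom called 0 of 10 as well. With the replicate number as a block and these 2 genotypes fitted alone, 5.01% of all genes were called and still 0 of the 10 (adjusted p from 0.104 to 0.976). Between same-numbered libraries hetL1002P was higher in 3 of 3 pairs for 5 genes, Clock, Per2, Per3, Nr1d2 and Tef, as it was for 23.5% of all genes, and lower in 3 of 3 for Npas2, as for 22.8% of all genes. WT 1 set several signs: without it Arntl stood at 0.48, Npas2 at 0.31, Nr1d1 at 0.27, Per1 at -0.30 and Per2 at -0.05.

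Set directly against hetL1002P, hetX753 had Npas2 at a log2 fold change of -1.88 (SE 0.92), Arntl at -0.84 (SE 0.52) and Nr1d1 at -0.77 (SE 0.25). Per2 stood at 0.94 (SE 0.40), Per1 at 0.67 (SE 0.63), Per3 at 0.64 (SE 0.30) and Tef at 0.28 (SE 0.10). Clock (-0.30, SE 0.23), Nr1d2 (0.20, SE 0.18) and Dbp (0.11, SE 0.42) lay nearer 0. Without hetL1002P 1 Arntl stood at -0.22, Clock at -0.08 and Npas2 at -1.26, and without hetX753 3 Per1 stood at 0.41 and Nr1d2 at 0.05. Called genes were 0 of 10 where 0.115% of all genes were called, 0.0616% higher and 0.0539% lower in hetX753 (edgeR), with Nr1d1 at the smallest adjusted p of 0.406, and DESeq2 and limma-voom called 0 of 10. At an unadjusted p under 0.05 stood 3 of 10, Per2, Nr1d1 and Tef, where 8.24% of all genes did. Libraries of the 2 carriers did not overlap for Per2, Per3 and Tef (higher in hetX753, 7.44% of all genes) and for Nr1d1 (lower in hetX753, 6.98% of all genes). Npas2 did not overlap in CPM either, but it did by library totals alone. In a joint test of the 3 genotypes, 0 of 10 genes passed with edgeR and limma-voom, where edgeR called 0.216% of all genes. DESeq2 called Tef alone in that test, against 2.75% of the genes to which it gave an adjusted p. Both comparisons with WT share the WT libraries, and both comparisons of hetX753 share the hetX753 libraries.

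Libraries of one genotype also differed from each other in the clock genes. In hetX753, library 1 was the highest of 3 in Arntl, Clock, Nr1d1 and Dbp and the lowest in Per1, Per3, Nr1d2 and Tef, 8 of 10 genes at an end, where 66.4% of all tested genes were. There Dbp lay on the side of Arntl, and hetX753 2 was the lowest in Arntl, Npas2, Nr1d1 and Dbp together. In hetL1002P, library 1 was the highest in Arntl, Clock, Npas2 and Nr1d1 and the lowest in Per2, Per3, Nr1d2, Dbp and Tef, 9 of 10 genes at an end, where 43.5% of all genes were. In WT, library 1 was the highest in those 4 genes and the lowest in the other 6, 10 of 10 at an end, where 65.2% of all genes were. WT 2 was the highest in the other 6 and the lowest in Arntl, Clock and Nr1d1, 9 of 10 at an end, where 55% of all genes were. Within hetX753 the highest library exceeded the lowest 2.25-fold in Arntl, 2.99-fold in Per1, 1.16-fold in Per2 and 1.05-fold in Tef. Within WT it did so 4.13-fold in Arntl, 7.71-fold in Per1, 3.33-fold in Per2 and 1.15-fold in Tef.

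Across all 9 libraries the highest value exceeded the lowest 9.26-fold in Per1, 6.07-fold in Arntl, 5.31-fold in Per2, 4.0-fold in Dbp, 3.70-fold in Per3 and 3.45-fold in Nr1d1. The median over 8609 genes averaging at least 5 CPM was 1.57, and 90% of them were under 2.32. Clock (2.07) and Nr1d2 (2.0) lay between those marks, and Tef (1.46) was below the median. Npas2, at 31.9-fold, rests on 2 to 85 counts.

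**Figure D3:**
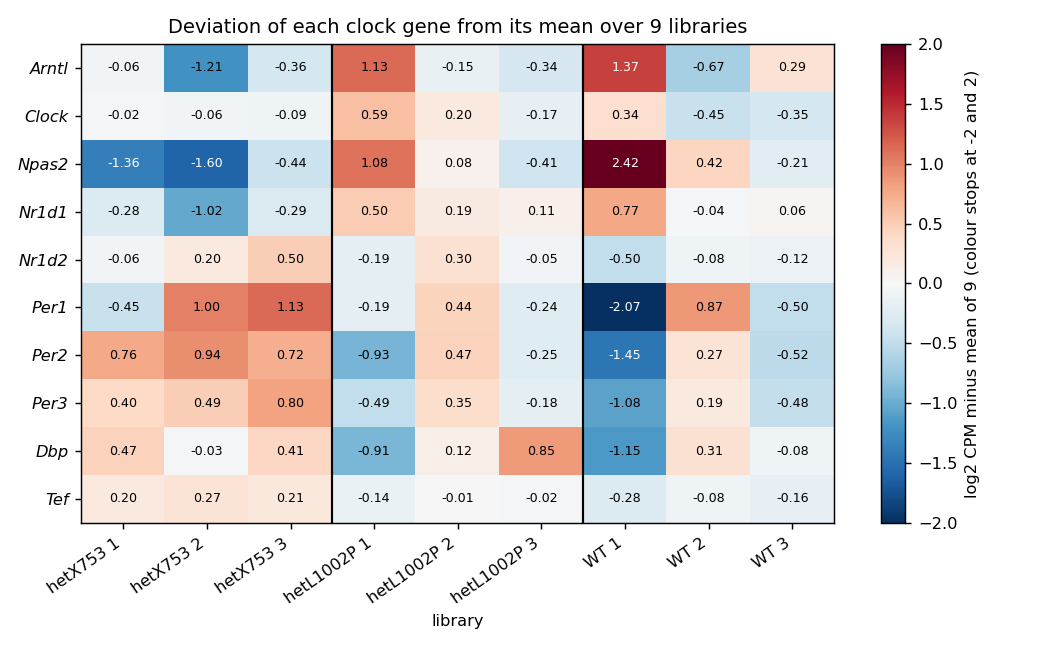
Deviation of each clock gene (rows) from its own mean over 9 libraries (columns), in log2 CPM, with the value in each cell. In hetX753 2 Arntl, Npas2 and Nr1d1 are at -1.21, -1.60 and -1.02 and Per1 and Per2 at 1.0 and 0.94, while in WT 1 Arntl, Npas2 and Nr1d1 are at 1.37, 2.42 and 0.77 and Per1, Per2 and Dbp at -2.07, -1.45 and -1.15.

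From library to library Arntl ran with Nr1d1, Npas2 and Clock and against the other genes. Over the 9 libraries Arntl, in log2 CPM, had Pearson r of -0.872 with Per2 (rho -0.75, adjusted p = 0.00954), -0.81 with Per3 (rho -0.767, adjusted p = 0.0167) and -0.809 with Per1 (rho -0.817, adjusted p = 0.0167), by exact permutation tests, 2-sided. With Dbp r was -0.767 (rho -0.55, adjusted p = 0.0262), with Tef -0.75 (rho -0.75, adjusted p = 0.0262) and with Nr1d2 -0.685 (rho -0.717, adjusted p = 0.0445), exact permutation. It was positive with Nr1d1 (r = 0.877, rho 0.783, adjusted p = 0.00954), Npas2 (r = 0.804, rho 0.617, adjusted p = 0.0175) and Clock (r = 0.676, rho 0.583, adjusted p = 0.0445), exact permutation. The adjustment is over these 9 pairs, whose unadjusted exact p ran from 0.00185 to 0.0445. The permutations treat the 9 libraries as exchangeable and allow for neither genotype nor library number. Over all genes, deviations from the genotype means correlated in same-numbered libraries of hetL1002P and WT (r = 0.285 for library 1, 0.36 and 0.516). Adjusted exact p for rho was 0.0459 for Per1, Per2, Per3, Nr1d1 and Tef, 0.0553 for Nr1d2, 0.11 for Npas2, 0.121 for Clock and 0.133 for Dbp.

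Much of this rests on WT 1 and hetL1002P 1, the 2 libraries farthest from the median of Arntl. Over the other 7 libraries r was 0.744 with Nr1d1, -0.734 with Per1, -0.575 with Per2, -0.528 with Tef, -0.484 with Per3, 0.335 with Npas2, -0.264 with Nr1d2, 0.054 with Dbp and -0.003 with Clock, and none of the 9 passed (adjusted p from 0.312 to 0.997, exact permutation). Without WT 1 alone none of the 9 passed either, with r of -0.785 for Per2 and 0.814 for Nr1d1 (adjusted exact permutation p = 0.102 for both). Deviations from the genotype means, given as a description, had r of -0.983 between Arntl and Tef, 0.902 with Nr1d1, -0.869 with Per2, 0.85 with Clock, -0.775 with Per3, -0.774 with Per1, 0.753 with Npas2, -0.742 with Dbp and -0.602 with Nr1d2. These deviations share the 9 libraries, with WT 1 and hetL1002P 1 among them.

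**Figure D4:**
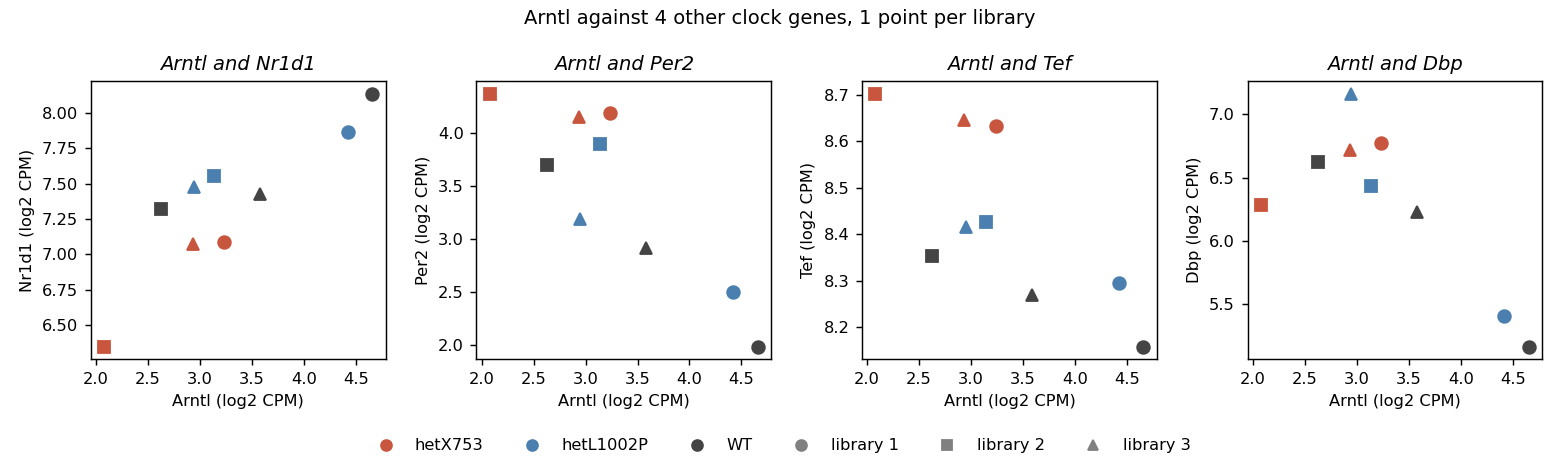
Level of Nr1d1, Per2, Tef and Dbp (vertical axes, log2 CPM) against Arntl (horizontal axes, log2 CPM), 1 point per library, coloured by genotype and shaped by library number. Nr1d1 runs with Arntl (r = 0.877) and Per2 against it (r = -0.872), and WT 1 and hetL1002P 1 lie at the high end of Arntl.

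The balance of the activators and the other genes was summarised per library as the mean log2 CPM of Arntl, Clock and Npas2 minus that of the other 7 genes, with no test. It was -4.47, -5.06 and -4.63 in hetX753, -2.57, -4.07 and -4.18 in hetL1002P, and -1.64, -4.28 and -3.67 in WT. On this scale all hetX753 libraries lay below all others, a separation that rests on Npas2. With Arntl and Clock alone the difference was -2.44, -3.16 and -2.98 in hetX753, -1.06, -2.50 and -2.54 in hetL1002P, and -0.58, -3.02 and -2.03 in WT, and the genotypes overlapped. With Npas2 the mean was -4.72 ± 0.31 in hetX753, -3.60 ± 0.90 in hetL1002P and -3.20 ± 1.38 in WT (SD, n = 3), and the difference of hetX753 from WT was -1.52, or -0.75 without WT 1 and -0.98 without Npas2. Arntl minus Dbp was -3.54, -4.21 and -3.79 in hetX753, -0.98, -3.29 and -4.22 in hetL1002P, and -0.51, -4.00 and -2.65 in WT, and here the genotypes overlapped. Arntl minus Nr1d1 differed little, at -4.09 ± 0.21 in hetX753, -4.13 ± 0.59 in hetL1002P and -4.01 ± 0.63 in WT (SD, n = 3). Nr1d1 counts among the other 7 genes of the balance, although it ran with Arntl over the libraries (r = 0.877). Without an hour of collection in the labels, a difference in hour and a difference of genotype cannot be told apart.

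Genes of the loop outside these 10 are given from lists of their own. Of 12 further core clock genes, 11 were tested and 0 passed in any comparison. In hetX753 against WT 7 of the 11 had a positive log2 fold change and the median was 0.07. The smallest p was that of Rora, an activator at the element that REV-ERBs bind, at 73.2, 83.1 and 90.7 CPM in hetX753, 62.1, 84.3 and 59.2 CPM in hetL1002P, and 56.4, 61.7 and 53.0 CPM in WT (log2 0.53, SE 0.15, adjusted p = 0.126). Next came Hlf, the remaining PAR bZIP factor, at log2 0.42 (SE 0.20, adjusted p = 0.256). In hetL1002P against WT the 2 with the smallest p were Rora (log2 0.27, SE 0.15) and Timeless (log2 -0.36, SE 0.23), and in hetX753 against hetL1002P they were Cry2, a cryptochrome repressor (log2 0.47, SE 0.19, adjusted p = 0.563), and Bhlhe40, which competes for E-boxes (log2 -0.50, SE 0.22, adjusted p = 0.585).

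Of the kinases, ligases and phosphatases that act on clock proteins 0 of 10 tested were past the threshold in each comparison, with a median log2 fold change of 0.07 in hetX753 against WT. The smallest p there were those of Prkaa2, a catalytic subunit of AMPK (log2 0.33, SE 0.13), and Ppp1cb, a subunit of protein phosphatase 1 (log2 0.28, SE 0.13). In hetL1002P against WT they were Prkaa2 (log2 0.32, SE 0.13) and Gsk3b (log2 0.24, SE 0.15), and in hetX753 against hetL1002P Fbxw11 (log2 -0.19, SE 0.10) and Ppp1cb (log2 0.21, SE 0.13).

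Of 8 outputs shared by many tissues 0 passed in any comparison, with 7 of 8 above 0 and a median of 0.32 in hetX753 against WT. The smallest p were those of Por, the reductase that serves cytochrome P450 enzymes (log2 0.38, SE 0.18), and Coq10b (log2 0.47, SE 0.25). They were Nampt (log2 0.19, SE 0.14) and Tsc22d3 (log2 -0.38, SE 0.28) in hetL1002P against WT, and Por (log2 0.45, SE 0.18) and Alas1 (log2 -0.24, SE 0.12) in hetX753 against hetL1002P. Of all tested genes 0.331% were called higher in hetX753 against WT and 0.177% lower. Among 7 outputs described in muscle, Ucp3, a mitochondrial uncoupling protein, was called higher there and 0 were called lower. It had 95.4, 190 and 153 CPM in hetX753, 39.7, 33.0 and 70.6 CPM in hetL1002P, and 51.8, 47.3 and 46.7 CPM in WT (log2 1.58, SE 0.29, adjusted p = 0.0459 against WT). Tbc1d1 (log2 0.45, SE 0.13) and Hk2 (log2 0.45, SE 0.14), genes of glucose uptake and use, did not pass. Without WT 1 no gene at all was called in hetX753 against WT (0% of 13165), Ucp3 included. In hetL1002P against WT 0 of 7 passed, with Hk2 (log2 0.28, SE 0.14) and Tcap (log2 -0.42, SE 0.25) at the smallest p, and in hetX753 against hetL1002P 0 of 7, with Ucp3 (log2 1.61, SE 0.29, adjusted p = 0.0707) and Pdk4 (log2 1.64, SE 0.49).

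The genes whose levels ran most nearly with Arntl over the 9 libraries, among 8362 genes averaging at least 5 CPM, predicted Gm and Rik symbols and the clock genes left out, were Pex26 (r = 0.931), Mark2 (0.914), Lyrm7 (0.913), Trim39 (0.912), Rnf122 (0.899) and Zhx2 (0.891). Those that ran most nearly against it were Tspan4 (r = -0.939), Hsd3b7 (-0.923), Mylk4 (-0.901), Mterfd2 (-0.898), Dgat2 (-0.891) and Hlf (-0.882). For Dbp the highest r were those of Lars2 (0.936), the ribosomal RNA precursor symbol Rn45s (0.922), Plod1 (0.904), Kcna7 (0.892), Rcsd1 (0.89) and the clock repressor Ciart (0.885). The lowest were those of Fam63a (-0.931), Gatad2a (-0.905), Pdzk1 (-0.858), Unc5b (-0.855), Mettl6 (-0.85) and Gpc4 (-0.845). With the 10 clock genes ranked among the rest (8372 genes), Nr1d1 came 13 from the top for Arntl and Per2 8 from the bottom. These r share 9 libraries and are descriptions.

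Immediate early genes respond to handling and activity. Fos had 3.92, 1.97 and 3.42 CPM in hetX753, 7.32, 6.15 and 3.42 CPM in hetL1002P, and 53.9, 5.94 and 7.20 CPM in WT, so that WT 1, high in Arntl, was high in Fos as well. Of 14 tested immediate early genes 0 passed, and the 2 with the smallest p in hetX753 against WT were Fos (log2 -2.86, SE 0.79) and Junb (log2 -1.14, SE 0.34). They were Junb (log2 -1.12, SE 0.34) and Ier2 (log2 -0.67, SE 0.25) in hetL1002P against WT, and Nr4a3 (log2 1.27, SE 0.51) and Nr4a1 (log2 0.35, SE 0.18) in hetX753 against hetL1002P. Of 13 glucocorticoid-responsive genes 0 passed in any comparison, with Fbxo32 (log2 -0.72, SE 0.21) and Klf9 (log2 0.77, SE 0.23) at the smallest p in hetX753 against WT. They were Trim63 (log2 -0.35, SE 0.14) and Klf9 (log2 0.54, SE 0.23) in hetL1002P against WT, and Fbxo32 (log2 -0.37, SE 0.21) and Ddit4 (log2 1.52, SE 0.89) in hetX753 against hetL1002P. Their part in the clock gene values was not tested.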

How the data were processed

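Libraries were prepared with the TruSeq RNA kit v2, per the labels' protocols, a kit that keeps no strand information. The authors deposited raw counts of reads per gene symbol for each library. The submitters' processing notes list TopHat2 2.0.14, Bowtie2 2.2.6, featureCounts 1.4.6 and mm10. Neither the annotation nor the strand setting is given in the sources used here, so reads of Nr1d1 and Thra, or of Dbp and Sphk2, may not have been separable.

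All 9 libraries were fitted together in edgeR 4.0.16 (R 4.3.3; filterByExpr, TMM, robust quasi-likelihood fit, no term but genotype, residual df 6). Benjamini-Hochberg adjustment ran over all tested genes, and an adjusted p under 0.05 was called. An SE is the log2 fold change over the square root of F. Log2 CPM used a prior count of 2. DESeq2 1.42.0 and limma-voom (limma 3.58.1) were alternatives. The code was tested on simulated data. P-values measure the spread between these libraries, which may be technical.

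Replicate numbers come from the titles. Deviations from the genotype means correlated over all genes in the same-numbered pairs of hetL1002P and WT (r = 0.285, 0.36 and 0.516), all above the bound of 0.1 for pairing. In those with hetX753 r ran from -0.279 to 0.164, and only hetX753 2 with WT 2 (0.164) was above the bound. Differently numbered libraries could exceed the bound too. Their r ran from -0.454 to 0.198 between hetL1002P and WT, and from -0.241 to 0.281 where hetX753 was one side. Pairs of libraries within each genotype differed by more than counting error (chi-square over df from 14.3 to 65.6).

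The clock genes and the further lists (core clock, clock protein modifiers, outputs, immediate early, glucocorticoid-responsive, and markers of muscle fibres, adipocytes, macrophages, fibroblasts, endothelium and erythroid cells) were chosen with earlier results of these data known. All 10 clock genes are named; from each further list of clock, early or glucocorticoid genes come the members that passed or the 2 with the smallest p, plus the 6 genes with the highest and the 6 with the lowest r with Arntl and with Dbp. Marker lists are given as sums. Genes named beyond these rules were picked after their values were seen. By library these are Tsc22d3, Fbxo32, Klf9 and Ucp3. The rest are Fkbp5, Mt1, Klf15, Sgk1, Ddit4 beside Per1, Thra, Myh4, Myh1, Acta1, Car3, Lep, Alas2, and Tbc1d1 with Hk2. The macrophage marker Adgre1 was not found under that symbol.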

Additional observations from a re-analysis of the deposited data

How the results depend on the processing

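The count of clock genes called in hetX753 against WT was 0 with edgeR and 4 with DESeq2, against 5.15% of the genes DESeq2 adjusted. It was 1 without both WT 3 and hetL1002P 3, where 2.58% of all genes were called, and 0 to 1 when any 1 library was left out. Without hetL1002P 3 it was 1, Tef, with 5.07% of all genes called. In the joint test it was 1 with DESeq2, against 2.75% of the genes with an adjusted p. It was 0 under the other alternatives and in the other 2 comparisons. The number of Arntl correlations past the threshold, 9 of 9, was 5 with library totals alone, 0 without both WT 1 and hetL1002P 1 (an alternative chosen after seeing the data), and 0 to 9 with 1 library left out, being 0 without WT 1 and 5 without hetL1002P 1.

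With the replicate block, 0 clock genes were called in every comparison. In the block fit of hetL1002P and WT alone, the pair that met the pairing rule, 635 genes (5.01%) were called, against 0 without the block, and 0 of these were clock genes.

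Signs turned for some small values. In hetL1002P against WT Nr1d1 was at 0.0046 with limma-voom and with the replicate block over all 9 libraries, 0.05 with library totals alone and 0.14 without both WT 1 and hetL1002P 1. There Per1 was at -0.20 without both WT 1 and hetL1002P 1 and Dbp at -0.0498 without both WT 3 and hetL1002P 3. Without both WT 1 and hetL1002P 1, Dbp was at -0.23 in hetX753 against hetL1002P, and r of Arntl was -0.003 with Clock and 0.054 with Dbp. Clock was at -0.0698 in hetX753 against WT without both WT 3 and hetL1002P 3. With 1 library left out, log2 fold changes in hetL1002P against WT ran from -0.83 to 0.48 for Arntl, -1.72 to 0.31 for Npas2, -0.30 to 1.14 for Per1, -0.14 to 0.82 for Per2, -0.18 to 0.27 for Nr1d1 and -0.12 to 0.71 for Dbp. Clock ran from -0.10 to 0.34 in hetX753 against WT and Dbp from -0.23 to 0.60 in hetX753 against hetL1002P. The cause was not tested. Npas2, at 2 to 85 counts, is limited by depth and had no adjusted p with DESeq2. The balance of activators and other genes, -1.52 in hetX753 against WT, was -0.98 without Npas2, an alternative chosen after seeing the data.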
